A study of Mus musculus with 6 samples.

Results

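The contractile apparatus of smooth muscle was described here through 32 named genes for its filaments, their anchors and their regulators. All 32 were found, by Ensembl identifier and mouse symbol, among the 14298 genes listed for whole aortic arches, and all 32 passed the filter on low values. RNA with a poly(A) tail was sequenced from the arches of adult mice on a C57/BL6 background that all lacked ApoE, the lipoprotein ligand whose loss makes mice prone to atherosclerosis, and all carried RBPJflox/flox. The 3 control libraries were ApoE-/-;RBPJflox/flox without a recombinase, and the 3 knockout libraries also carried Cdh5-CreERT, a recombinase active after tamoxifen in cells that use the endothelial Cdh5 promoter. Every animal received tamoxifen for 1 week at 8 weeks of age and a high-fat diet for 6 weeks. The labels place the deletion in the Cdh5 domain and not in smooth muscle, and the groups differ in carrying it as well as in the deletion. Levels are in CPM (reads per scaled library, normalised by the authors), listed in the order control S591, S592 and S594, then knockout S595, S598 and S599, and the deposited columns do not say which labelled mouse each library number is.

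Smooth muscle cells of the arterial wall shorten when myosin, activated by phosphorylation of its light chain, pulls on actin filaments fixed to dense bodies and to adhesion plaques at the membrane. The genes of this machinery are known as targets of serum response factor and its coactivator myocardin, and their transcripts are the usual markers of the contractile state, which smooth muscle cells of atherosclerotic lesions are known to lose in part. In whole-tissue RNA a lower share of smooth muscle cells and less of a transcript per cell cannot be told apart.

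The libraries held between 5904504 and 10072495 reads over the listed genes, and between 151 and 121843 reads lay behind each value of the 32 genes. Rbpj, the targeted gene, read 174, 191 and 200.4 in the controls and 169, 197 and 212 in the knockouts (log2 fold change 0.03, exact two-sided permutation p = 0.9, where 0.1 is the smallest possible), and whole-arch RNA does not check a deletion made in the endothelium. The 8 defining smooth muscle markers were present in every library, with 151 reads or more each. Thymocyte and T cell markers stood apart in 2 knockout libraries, with a summed level of 221 CPM in S598 and 97.9 CPM in S599 against 30.7 to 44.5 CPM in the others. Airway and epithelial markers split by group, with a summed level of 6 markers from 18.1 to 24.8 CPM in the controls and from 83.5 to 117 CPM in the knockouts and none of them at 0 in any library. Their part, and that of the thymocyte markers, in the levels of the 32 genes was not tested.

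Transcripts of the contractile apparatus stood higher in the knockout arches, by about the same factor for most of the genes. All 32 genes had a positive log2 fold change (knockout minus control on the log2(CPM + 1) scale), against 47.8% of all genes, with a median of 0.61 against −0.02 for all genes. Knockout values lay wholly above control values for 19 of the 32, against 11.3% of all genes, and wholly below for 0, against 14.2%. None passed the test over all genes (limma, Benjamini-Hochberg adjusted p from 0.121 to 0.791), where 0.021% of all genes passed as higher. At an unadjusted p of 0.05 limma counted 20 higher, against 8.04% of all genes, and 0 lower, against 12.0%. That count of 20 was 10 without control S594, 7 without knockout S595 and 6 without knockout S598. Over all genes, in either direction, limma counted 2860 with all libraries, 1657 without S594, 2867 without S595 and 1573 without S598. Without control S594 the log2 fold change of 17 of the 32 genes was smaller by over 1.5 times, with that of Acta2 at 0.41 and of Myh11 at 0.48, and the median was 0.41. Without S598 and S599 together, which leaves 1 knockout library, the median was 0.70. The edgeR quasi-likelihood test and limma-voom on the recovered reads also called 0 of the 32 (25 and 24 higher at an unadjusted p of 0.05, against 8.13% and 8.49% of all genes). DESeq2 called 10 of the 32 higher, against 2.07% of the genes it tested, and limma with array weights 3, against 2.01%.

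The libraries did not split evenly by genotype. Together the 32 genes took 45361, 38388 and 27760 CPM in the controls and 60798, 60873 and 45959.7 CPM in the knockouts, which is 2.85% to 4.32% of the listed reads in the controls and 4.73% to 6.27% in the knockouts. Control S594 was the lowest library for 29 of the 32 genes, and knockout S595 or S598 was the highest for 14 and 17. Knockout S599 stood beside control S591, above it for 20 genes and below it for the other 12, with a median log2 difference of 0.04. The mean of the 32 genes about each gene's own mean ran from −0.67 to −0.01 in the controls and from 0.01 to 0.43 in the knockouts, so the range within the controls (0.66) was larger than the difference between the group means (0.57).

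**Figure D1:**
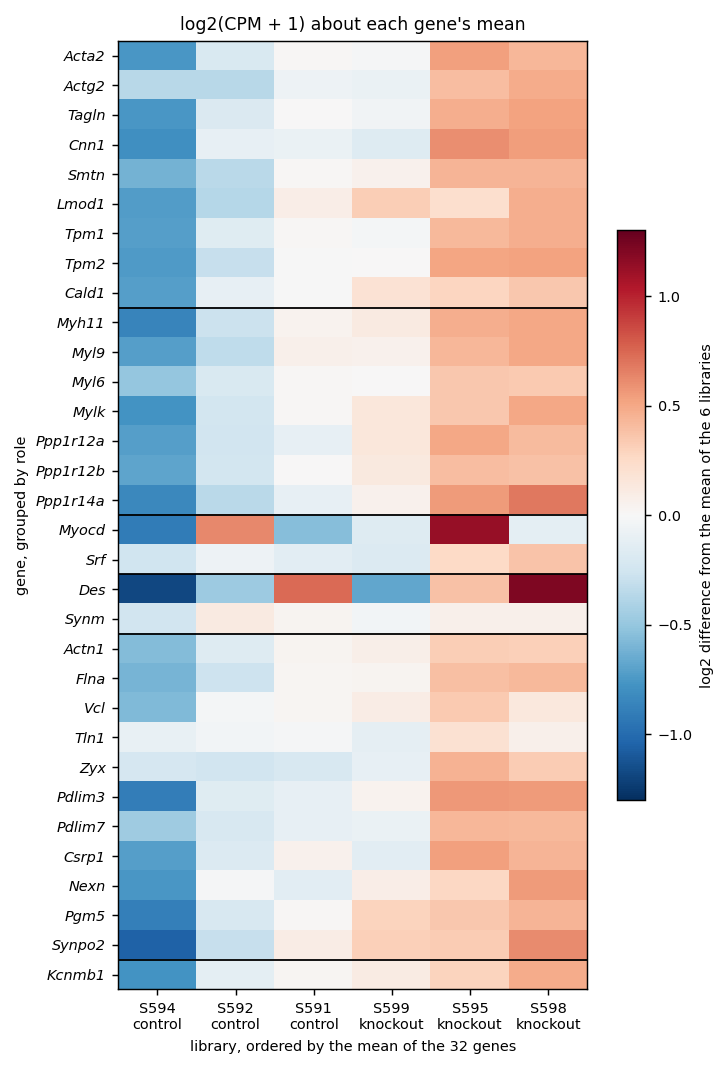
Heat map of log2(CPM + 1) of the 32 genes, each row shown as the difference from that gene's mean over the 6 libraries (colour bar, log2), with rows grouped by role and libraries ordered by the mean of the 32 genes. Control S594 is lowest for 29 genes, control S591 and knockout S599 lie near the middle, and Myocd, Des, Synm and Tln1 depart from the common column pattern.

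Macrophage transcripts followed the opposite order across the same libraries. The summed level of 14 macrophage markers was 6347, 8607 and 10533 CPM in the controls and 3523, 2696 and 6234 CPM in the knockouts. The library order by macrophage markers was thus the reverse of the order by the 32 genes. S591 and S599 were close in both orders, and S595 and S598 were close for the 32 genes. All 14 macrophage markers had negative log2 fold changes (median −1.10), and none of the 14 was at 0 in any library (lowest 53 reads). In the knockouts 12 lay wholly lower, against 14.2% of all genes. Limma called 0 of them, with 14 lower at an unadjusted p of 0.05, against 12.0% of all genes. DESeq2 called 12 lower, against 610 of the 13727 genes it tested. Among the markers the integrin gene Itgam stood at 159 ± 63.2 and 49.8 ± 5.06 CPM (SD, n = 3 each), and the adaptor gene Tyrobp at 160.4 ± 24.3 and 75.1 ± 20.9 CPM. CPM are shares of one total, and the part of macrophage transcripts in the levels of the 32 genes was not tested.

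Thin filament genes, which encode actin and the proteins that bind along it, all lay on the higher side. Of 9, the groups were apart for 4 with the knockout higher (Smtn, Lmod1, Tpm2 and Cald1), against 11.3% of all genes. At an unadjusted p of 0.05, 7 were higher, against 8.04% of all genes, and the median log2 fold change was 0.63. Acta2, the gene of the smooth muscle alpha-actin that builds most of the filament, read 8580.4, 7435 and 5021 CPM in the controls and 12360.4, 11443 and 8399.7 CPM in the knockouts. Knockout S599 lay just under control S591, and the other knockouts lay above every control. The fold difference of means was 1.53, with a log2 fold change of 0.63 (95% interval −0.31 to 1.57, limma adjusted p = 0.427). Tagln, the gene of transgelin, an actin-binding protein used as an early smooth muscle marker, read 3773, 3288 and 2218 CPM and then 5199, 5389 and 3652 CPM in the knockouts, where S599 again lay under S591 (log2 fold change 0.63, 95% interval −0.09 to 1.35, limma adjusted p = 0.305). Cnn1, the gene of calponin, which restrains actin-activated myosin, read 724, 714 and 444 CPM in the controls. Its knockout values were 1172, 1124 and 686 CPM, and S599 lay below both S591 and S592.

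Smtn, the gene of smoothelin, a protein of fully contractile cells, read 1023, 793 and 662 CPM in the controls and 1378, 1376 and 1048 CPM in the knockouts. The lowest knockout library exceeded the highest control by a small margin. Lmod1, the gene of leiomodin, which starts new actin filaments, read 543, 394 and 309.6 CPM against 594.5, 710.3 and 637 CPM. It was the thin filament gene with the smallest p (log2 fold change 0.67 ± 0.20 SE, 95% interval 0.20 to 1.15, limma adjusted p = 0.147), and S599 was not its lowest knockout library. Without control S591, limma called Lmod1 higher (log2 fold change 0.88, adjusted p = 0.0354), against 1.42% of all genes called higher in that fit.

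The tropomyosins lie along the filament and gate access to myosin. Tpm2 read 876, 714 and 527 CPM in the controls and 1262, 1270.2 and 885 CPM in the knockouts (log2 fold change 0.70), and Tpm1 stood at 909 ± 226 and 1339 ± 241 CPM (log2 fold change 0.57). Cald1, the gene of caldesmon, another inhibitor of the actin and myosin interaction, read 1409, 1313 and 864 CPM and then 1723, 1807 and 1614 CPM. All 3 knockout values lay above the controls. Actg2, the gamma smooth muscle actin gene, stood at 205 ± 25.8 and 299 ± 60.1 CPM (log2 fold change 0.53), with S599 under S591. The actin genes and the tropomyosin genes are close in sequence, so their separate values are uncertain.

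**Figure D2:**
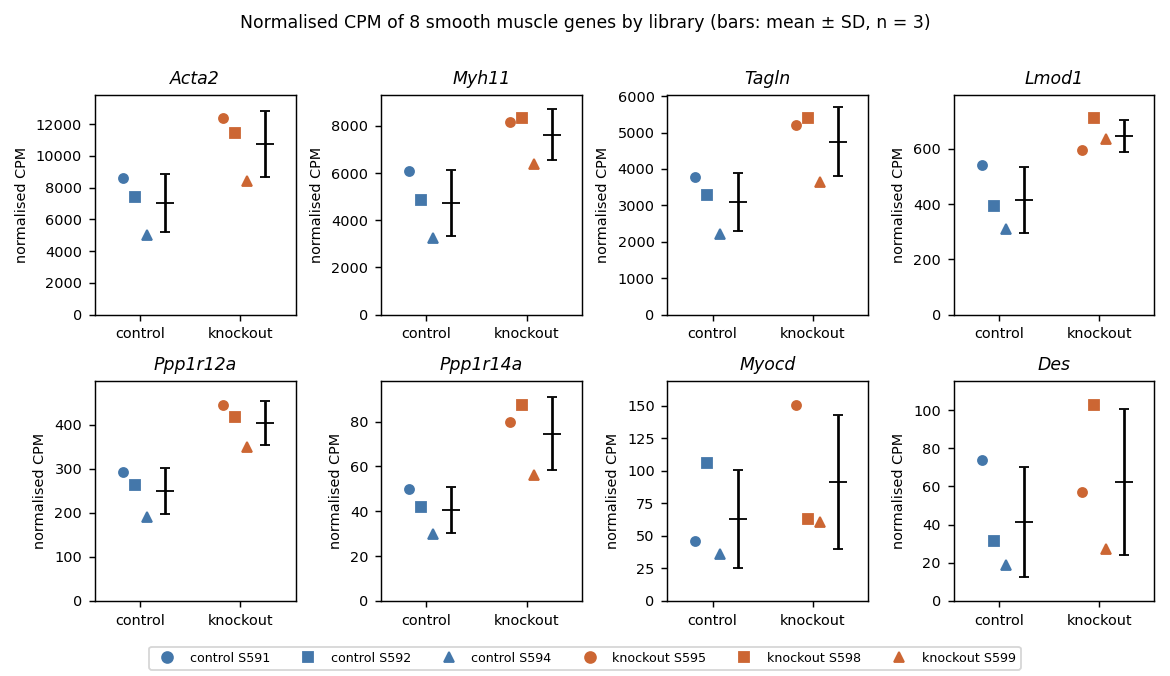
Normalised CPM of 8 of the genes in each library (points, linear axes from 0), with the mean ± SD of each group (n = 3) as black bars. The groups do not overlap for Myh11, Lmod1, Ppp1r12a and Ppp1r14a, while S599 lies under S591 for Acta2 and Tagln, and single libraries stand out for Myocd and Des.

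The myosin motor and the enzymes that set its phosphorylation held the 2 smallest p-values of the 32 genes (Ppp1r12a and Ppp1r14a). Of 7 genes, the groups were apart for 5 with the knockout higher (Myh11, Mylk, Ppp1r12a, Ppp1r12b and Ppp1r14a), against 11.3% of all genes. The median log2 fold change was 0.67. Myh11, the gene of the smooth muscle myosin heavy chain, read 6075, 4844 and 3259 CPM in the controls and 8184, 8318 and 6386 CPM in the knockouts. The fold difference of means was 1.61 (log2 fold change 0.73, 95% interval −0.10 to 1.55, limma adjusted p = 0.302), and DESeq2 called it (adjusted p = 0.0437). Myl9, the gene of the regulatory light chain whose phosphorylation switches the motor on, read 1983, 1504 and 1154 CPM and then 2554, 2675 and 1964 CPM, with S599 just under S591. Myl6, the essential light chain gene that many other cell types also use, stood at 1386 ± 245 and 1897 ± 248 CPM, with a log2 fold change of 0.46. Mylk, the gene of the kinase that phosphorylates the regulatory light chain, read 1419, 1184 and 815 CPM against 1787, 1988 and 1547 CPM, with all knockout values above the controls (log2 fold change 0.67).

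Genes of the phosphatase that opposes this kinase stood higher as well. Ppp1r12a, the gene of the targeting subunit MYPT1, read 292, 264 and 190.3 CPM in the controls and 445, 418 and 348 CPM in the knockouts. Even the lowest knockout library exceeded the highest control, and the log2 fold change stood at 0.71 ± 0.18 (SE, 95% interval 0.30 to 1.13, limma adjusted p = 0.121). The related subunit gene Ppp1r12b read 754, 636 and 466 CPM against 993, 979 and 816 CPM (log2 fold change 0.61). Ppp1r14a, the gene of CPI-17, which inhibits this phosphatase when it is phosphorylated, read 50.02, 42.0 and 29.8 CPM in the controls and 80.0, 87.6 and 56.2 CPM in the knockouts. It had the largest fold difference of means among the 32 genes, 1.84 (log2 fold change 0.87, standard error 0.23, 95% interval 0.34 to 1.39, limma adjusted p = 0.122). Transcripts for the kinase, the phosphatase subunits and the phosphatase inhibitor thus lay on the same side, and none of them passed limma over all genes. DESeq2 called Ppp1r12a, Ppp1r14a, Ppp1r12b, Mylk and Myh11 of this role higher (adjusted p from 0.00933 to 0.0437), against 2.07% of the genes it tested.

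Genes that anchor actin to dense bodies and adhesion plaques followed the filaments, with talin as the clearest exception. Of 11, the groups were apart for 9 with the knockout higher, against 11.3% of all genes, and the median log2 fold change was 0.56. Synpo2, the gene of an actin-bundling protein of dense bodies, read 697, 529 and 313 CPM in the controls and 815, 996 and 809 CPM in the knockouts (log2 fold change 0.83). Pdlim3, the gene of an actinin-associated LIM protein, read 176, 169.6 and 101 CPM and then 279.6, 278 and 195 CPM (log2 fold change 0.77). Both separated the groups, and for both S594 was far under the other controls. Pgm5, the gene of aciculin, a partner of dystrophin at the membrane, read 195, 167 and 104 CPM against 247, 263 and 236 CPM (log2 fold change 0.72, limma adjusted p = 0.142).

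Nexn, the gene of the actin-binding protein nexilin, read 121, 132 and 78.5 CPM in the controls and 161, 196 and 141 CPM in the knockouts. Pdlim7, the gene of the LIM protein enigma, read 239, 223 and 186 CPM and then 348, 345 and 241 CPM. For Pdlim7 the gap between S599 and S591 was small against the spread of either group. Zyx, the gene of zyxin, which senses tension at adhesions, read 411, 399 and 407 CPM against 647, 594.7 and 439 CPM, and S594 was not its lowest control. Actn1, the gene of an actin cross-linker of dense bodies, read 1031, 896 and 679.6 CPM and then 1257, 1246 and 1063 CPM. Flna, the gene of filamin, which joins actin to the membrane, read 8924, 7282 and 5774 CPM against 11461, 11748 and 8981 CPM (log2 fold change 0.56, 95% interval −0.33 to 1.46).

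Vcl and Tln1 encode vinculin and talin, which link integrins to actin in many cell types. Vcl read 655, 633 and 433 CPM in the controls and 817, 711 and 688 CPM in the knockouts (log2 fold change 0.38, and 0.19 without control S594). Tln1 differed least in this role, at 757 ± 21.6 and 813 ± 89.4 CPM, and its log2 fold change was 0.10 (95% interval −0.22 to 0.41). Csrp1, the gene of a LIM protein that binds actinin and zyxin, stood at 991 ± 256 and 1454 ± 338 CPM, with overlapping groups. Kcnmb1, the gene of the beta subunit that tunes the calcium-activated potassium channel of smooth muscle, read 196, 176 and 112 CPM in the controls and 236, 269.8 and 208 CPM in the knockouts. Its groups were apart, with a log2 fold change of 0.59 (95% interval 0.10 to 1.08, limma adjusted p = 0.187).

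**Figure D3:**
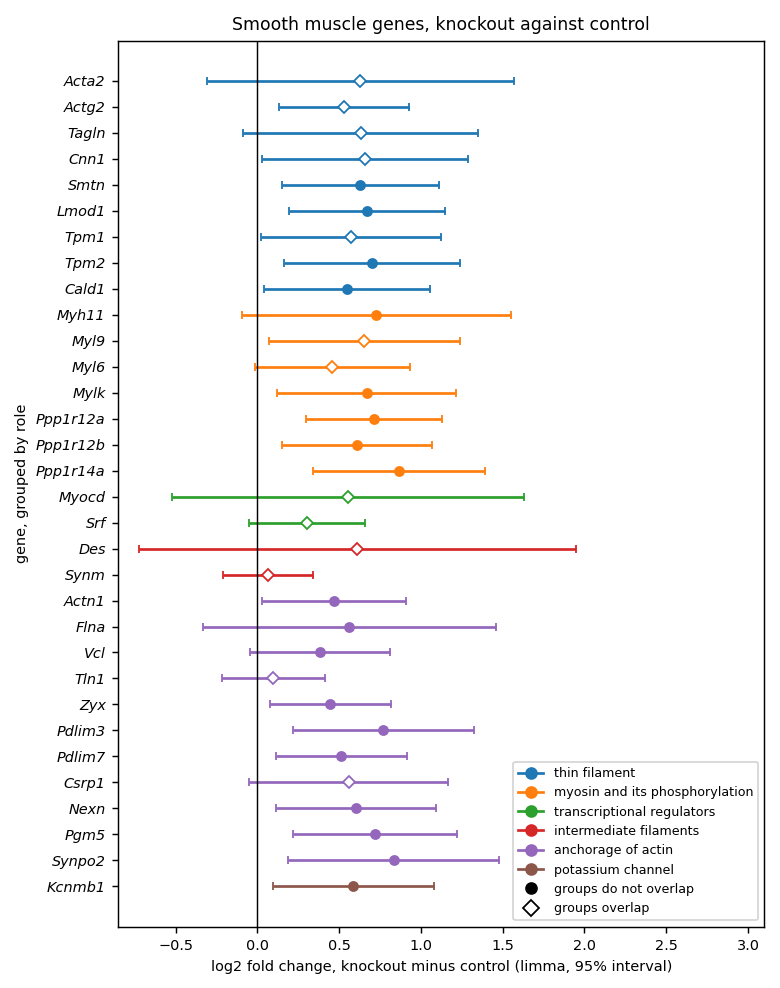
Log2 fold change of each gene (knockout minus control, log2(CPM + 1) scale, limma) with its 95% interval, coloured by role, where filled circles mark genes whose groups do not overlap and open diamonds those whose groups overlap. All 32 estimates lie to the right of 0, from 0.07 for Synm to 0.87 for Ppp1r14a, and Des and Myocd have the widest intervals.

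For both intermediate filament genes the groups overlapped. Des, the gene of desmin, which only part of vascular smooth muscle contains, read 73.6, 31.2 and 18.8 CPM in the controls and 57.1, 103 and 27.0 CPM in the knockouts. Control S591 exceeded knockouts S595 and S599, and the log2 fold change of 0.61 had a 95% interval of −0.73 to 1.95. It was 0.16 without knockout S598, 0.17 without control S594, 1.10 without knockout S599 and 1.13 without control S591. Striated muscle also contains desmin, and the summed level of 11 striated muscle markers was 109.7, 38.7 and 23.3 CPM in the controls and 84.5, 52.0 and 40.7 CPM in the knockouts. Among these, the troponin gene Tnnt2 was also highest in S591 (24.8 CPM) and S598 (23.3 CPM) and lowest in S594 (2.66 CPM). Actn2, an actinin gene, differed, with 7.20 CPM in S591 and 7.57 CPM in S598 against 24.1 CPM in S595. The part of striated muscle in the level of Des was not tested. Of the 11 markers 2 had no read in at least 1 library. Synm, the gene of synemin, a partner of desmin, stood at 67.0 ± 8.67 and 69.9 ± 3.09 CPM (log2 fold change 0.07, 95% interval −0.21 to 0.34), and its sign turned without control S594 (−0.040).

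The regulators Srf and Myocd were not among the genes that separated the groups. Srf, the gene of serum response factor, which binds the CArG box in promoters of contractile genes, read 75.6, 79.3 and 69.2 CPM in the controls and 99.6, 108 and 73.1 CPM in the knockouts. Knockout S599 lay inside the control range, and the log2 fold change was 0.30 (95% interval −0.05 to 0.66, limma adjusted p = 0.317). Myocd, the gene of the coactivator myocardin, read 46.5, 106 and 36.1 CPM and then 151, 62.7 and 60.8 CPM. Control S592 and knockout S595 stood far above the other 4 libraries, although S592 was the second-lowest library for the 32 genes as a whole. The log2 fold change of 0.55 had a 95% interval of −0.52 to 1.63, and it was 0.13 without knockout S595 and 1.006 without control S592. Heart muscle also makes myocardin, and the summed level of the striated muscle markers was highest in S591 and second-lowest in S592. Among these markers, the actinin gene Actn2 was highest in S595 (24.1 CPM) and S592 (15.1 CPM) and lowest in S594 (2.04 CPM). Tnnt2 differed, with 13.3 CPM in S595 and 9.19 CPM in S592, under its values in S591 and S598. The part of striated muscle in the level of Myocd was not tested.

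The CArG box is read here as 2 bases of C, then 6 bases of A or T, then 2 bases of G, a pattern that is the same on both strands. RefSeq promoter windows of GRCm38.p6, from 250 bases before to 50 after the annotated start, were found for 27 of the 32 genes. Actg2, Tagln, Myh11, Myocd and Nexn had no window and were not searched. A box lay in the window of 4 of these 27 (14.8%), namely Srf, Myl9, Vcl and Myl6, and in 1.81% of the 27025 genes of the table. With exactly 1 of the 6 bases replaced by G or C, a near match lay in 4 of the 27 (14.8%) against 9.69% of all genes. Genes of this machinery are known as targets of serum response factor, so these shares are not a test of the set. The stretches around each full match are printed because serum response factor is known to bind this box. They read 5′ to 3′ on the gene's strand, with the box in capitals.
Srf, chr17:46556185-46556274 (minus strand, first box 82 bases before the start): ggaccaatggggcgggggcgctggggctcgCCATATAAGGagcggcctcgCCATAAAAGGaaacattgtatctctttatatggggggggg
Myl9, chr2:156775273-156775342 (plus strand, box 161 bases before the start): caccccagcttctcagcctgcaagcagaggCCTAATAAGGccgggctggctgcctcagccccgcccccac
Vcl, chr14:20929148-20929210 (plus strand, box 227 bases before the start): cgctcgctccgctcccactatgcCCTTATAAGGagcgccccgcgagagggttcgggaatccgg
Myl6, chr10:128493020-128493089 (minus strand, box 50 bases before 1 of its 2 annotated starts): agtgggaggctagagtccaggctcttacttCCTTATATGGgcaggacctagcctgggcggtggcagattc
The promoter of Srf thus holds 2 boxes 20 bases apart, and that of Acta2 holds near matches only, of which CCCTATATGG begins 84 bases before the start. Against the median log2 fold change of 0.61 over the 32 genes, Srf (0.30), Vcl (0.38) and Myl6 (0.46) lay under it and Myl9 (0.65) just above. A match of letters is not a measured binding site, and the part of serum response factor in the levels of the 32 genes was not tested.

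Most of the 32 genes kept nearly fixed proportions to one another from library to library. After the mean of the 32 genes in each library was taken away, the SD over the 6 libraries was 0.04 on the log2 scale for Tpm1, 0.05 for Flna, 0.07 for Tagln and 0.07 for Acta2. It was 0.63 for Des, 0.61 for Myocd, 0.33 for Tln1 and 0.32 for Synm. On the same relative scale the group difference was −0.51 for Synm, −0.48 for Tln1, −0.27 for Srf and −0.19 for Vcl, and 0.29 for Ppp1r14a, 0.26 for Synpo2 and 0.20 for Pdlim3. These relative differences describe unequal shifts within the set and were not tested.

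Per length, the most abundant transcripts were those of the filament and its light chains. Divided by the median length of the protein-coding transcripts in the GENCODE M21 basic set, control means were 3446 CPM per kb for Acta2, 2044 for Myl6, 1939 for Tagln, 1371 for Myl9, 878 for Flna and 733 for Myh11. Knockout means were 5275 CPM per kb for Acta2, 2798 for Myl6, 2976 for Tagln, 2126 for Myl9, 1286 for Flna and 1183 for Myh11. The least abundant per length in the controls were Myocd (12.8 CPM per kb), Des (13.6) and Synm (15.0). These 3 were also among the 4 genes with the loosest proportions, the other being Tln1 (90.2 CPM per kb in the controls).

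Other smooth muscle genes outside the 32 behaved alike. Of 28, 27 had positive log2 fold changes (median 0.59). The groups were apart for 16 with the knockout higher and for 0 with it lower, against 11.3% and 14.2% of all genes. At an unadjusted p of 0.05, 17 were higher, against 8.04% of all genes. Limma called 0 of the 28 and DESeq2 called 9 higher, against 2.07% of the genes it tested. Hspb6, the gene of a small heat shock protein that relaxes smooth muscle when phosphorylated, stood at 102 ± 14.4 and 169.6 ± 31.7 CPM (log2 fold change 0.72, limma adjusted p = 0.112). Fbxl22, the gene of a sarcomeric F-box protein, stood at 51.5 ± 11.2 and 86.4 ± 14.6 CPM (limma adjusted p = 0.121). Control S594 had the lowest mean of this list (−0.59) and knockouts S598 and S595 the highest (0.33 and 0.40), and S591 and S599 lay between them (−0.03 and 0.09).

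Partners and competitors of serum response factor shifted less than the contractile genes, and in both directions. Of 14 tested, 9 had positive and 5 negative log2 fold changes, with a median of 0.11 that is small against the 0.61 of the contractile genes. The groups were apart for 5 with the knockout higher and 0 with it lower, against 11.3% and 14.2% of all genes. Limma called 0, with 4 higher and 2 lower at an unadjusted p of 0.05, against 8.04% and 12.0% of all genes. DESeq2 called 2 higher, against 2.07% of the genes it tested. Gata6, the gene of a transcription factor of differentiated vascular muscle, stood at 47.6 ± 3.41 and 66.5 ± 8.33 CPM (limma adjusted p = 0.122). Mef2c, the gene of a muscle transcription factor that activates Myocd, stood at 89.6 ± 21.6 and 133 ± 5.61 CPM (limma adjusted p = 0.141).

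Related genes of the same protein families, listed as nonmuscle actomyosin without a check of which cells use each gene, mostly did not follow. Of 18 tested, 5 had positive and 13 negative log2 fold changes (median −0.15). The groups were apart for 1 with the knockout higher and 5 with it lower, against 11.3% and 14.2% of all genes. Tpm3, a tropomyosin gene of many cell types, read 254, 306 and 360.3 CPM in the controls and 216, 177 and 209.9 CPM in the knockouts, the reverse of Tpm2, with a log2 fold change of −0.60 (limma adjusted p = 0.121). Tln2, the gene of the other talin, stood at 36.2 ± 1.68 and 25.2 ± 4.07 CPM, with a log2 fold change of −0.52 (limma adjusted p = 0.128). Limma called 0 of the 18, with 1 higher and 5 lower at an unadjusted p of 0.05, against 8.04% and 12.0% of all genes. DESeq2 called 1 higher and 1 lower, against 284 and 610 of the 13727 genes it tested.

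**Figure D4:**
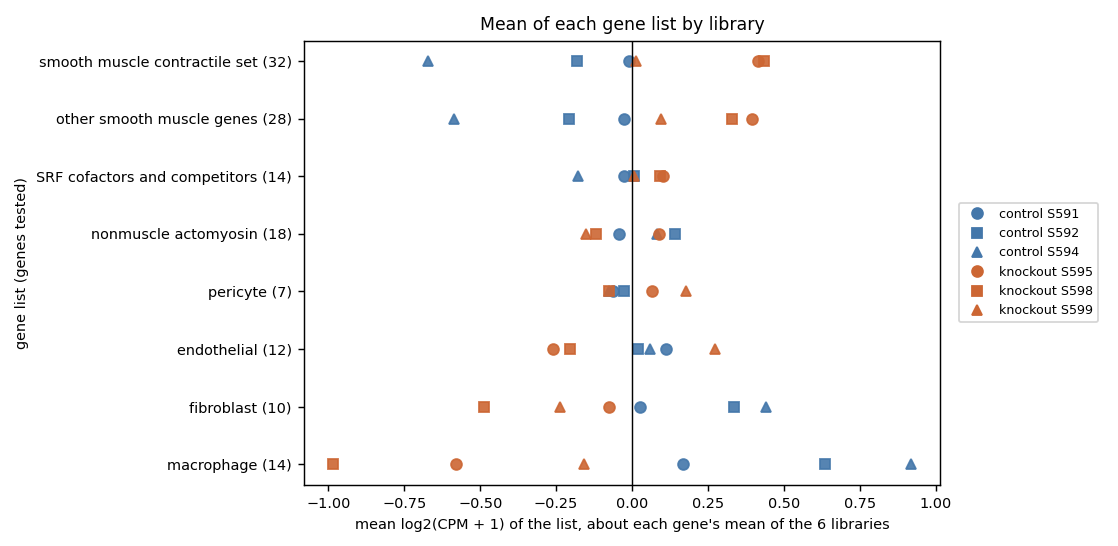
Mean log2(CPM + 1) of each gene list in each library, about each gene's mean over the 6 libraries (horizontal axis, log2), with blue for the 3 controls, orange for the 3 knockouts and the number of genes tested in brackets. The contractile set and the other smooth muscle genes share the order of libraries from S594 (−0.67 and −0.59) up to S599, with S595 and S598 highest in both, and macrophage markers run the other way, from 0.92 in S594 to −0.98 in S598.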

How the data were processed

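The deposited table gives 1 normalised signal per gene and library on a linear scale, which the authors computed. Tested on the values, each signal equals (reads + 0.5) in CPM, and 100.0% of the values gave whole reads (tolerance 0.01). Per the submitters' processing notes, CASAVA 1.8, cutadapt 1.6.1, RSEM 1.16, Bowtie 0.12.7, limma, edgeR and the build NCBIM37 were used. Annotation and strandedness were not given in the sources used here.

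Genes were compared with limma 3.58.1 (R 4.3.3) on log2(value + 1), the variance modelled as a trend of intensity, over all 6 libraries, for genes with at least 1 CPM in at least 3 libraries. P-values were two-sided and adjusted over all 14298 genes by Benjamini and Hochberg, with a threshold of 0.05. Symbols matched 13828 identifiers. Alternatives changed the pseudocount, filter, scaling, variance model or threshold, or used edgeR 4.0.16, DESeq2 1.42.0 or limma-voom on the recovered reads, or left libraries out. Scripts were tested on simulated counts.

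The 32 genes and all lists were chosen with earlier results of these data known. All 32 are named, library by library for 12 set genes and for those whose groups do not overlap. Of each other list the 2 genes with the smallest p are named, apart from 1 list that is not reported here, and any other gene is named after its values were seen. Each library came from 1 mouse as far as the series' design text tells.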

Additional observations from a re-analysis of the deposited data

How the results depend on the processing

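With 1 library left out in turn, the median log2 fold change of the 32 genes ran from 0.41 (without S594) to 0.76 (without S591), the number called higher by limma from 0 to 3 (Lmod1, Ppp1r12a and Pgm5, without S591), and the number at an unadjusted p of 0.05 from 6 (without S598) to 25 (without S591), with 7 without S595 and 10 without S594. Over all genes, in either direction, the number at an unadjusted p of 0.05 ran from 1573 (without S598) to 3430 (without S591). Of the 32 genes, the number with a negative log2 fold change ran from 0 to 1 (Synm, −0.040 without S594, with 0.14 without S592 as its highest value). The number with groups apart, an alternative chosen after seeing the data, ran from 19 to 29 (without S599). Of all genes, 17.1% were apart with the knockout higher without S599, against 11.3% with all libraries. That share ran from 13.2% (without S594) to 20.8% (without S591), as fewer libraries overlap less. Over all genes the calls ran from 0 to 201 higher and from 0 to 468 lower, and Rbpj ran from −0.045 (without S599) and −0.029 (without S591) to 0.12. Without S598 and S599, which leaves S595 as the 1 knockout library, taken to vary as the controls do, the median of the 32 genes was 0.70, 0 were called, 9 were at an unadjusted p of 0.05, 30 were apart (26.6% of all genes), Rbpj was −0.16, and 0 of all genes were called higher. DESeq2 called 10 of the 32 (284 higher and 610 lower over all genes) and array weights 3 (288 and 723), against 0 (3 and 0) in the reported fit. Over all genes the higher calls were 0 with a pseudocount of 0.5, a minimum mean of 5, edgeR or limma-voom, and 1 without the trend, a pseudocount of 5 gave 1 lower, and a threshold of 0.1 gave 5 higher and 5 lower with 0 of the 32. Single-gene log2 fold changes of the 32 kept their sign in all fits but that of Synm, and 17 of them moved by over 1.5 times without S594, 4 without S599, 2 each without S592, S595 and S598, and 1 without S591. No paired analysis was possible because the columns carry library numbers and not the replicate numbers of the labels.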

Other observations

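Genes linked to smooth muscle cells that have left the contractile state, many of which macrophages and fibroblasts also express, stood lower in the knockout arches. Of 13, 12 had negative log2 fold changes (median −1.19), and 8 were apart with the knockout lower, against 14.2% of all genes. At an unadjusted p of 0.05, 9 were lower, against 12.0% of all genes. Limma called 0 of the 13 and DESeq2 called 7 lower, against 610 of the 13727 genes it tested. Spp1, the osteopontin gene, read 2593, 8243 and 6642 CPM in the controls and 1329.6, 904 and 1121 CPM in the knockouts, and the adhesion molecule gene Vcam1 stood at 800.3 ± 164 and 351 ± 89.3 CPM (limma adjusted p = 0.107 each). Control S591, the control with the highest contractile transcripts, had the lowest Spp1 of the controls. Control S594, with the lowest contractile transcripts, had less Spp1 than S592, so the controls did not hold a reverse order throughout.

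Pericyte markers, from mural cells related to smooth muscle, differed in both directions. Of 7 tested, 6 had positive log2 fold changes (median 0.28). The groups were apart for 2 with the knockout higher and 1 with it lower, against 11.3% and 14.2% of all genes. Limma called 0, with 2 higher and 1 lower at an unadjusted p of 0.05, against 8.04% and 12.0% of all genes, and DESeq2 called 0. The potassium channel gene Kcnj8 read 41.1, 43.3 and 44.0 CPM in the controls and 53.6, 50.5 and 56.5 CPM in the knockouts, and Anpep, which macrophages also express, stood at 324 ± 60.9 and 174 ± 72.5 CPM. Fibroblast markers had a median log2 fold change of −0.43 over 10 genes, with Lum and Fbln2 at the smallest p (limma adjusted p = 0.112 and 0.121). Endothelial markers had a median of −0.01 over 12 genes, 6 positive and 6 negative. Nos3 (log2 fold change −0.86, groups apart) and Vwf (−0.38) had the smallest p (limma adjusted p = 0.107 and 0.345). Adipocyte markers had a median of −0.23 over 10 genes, 2 positive and 8 negative. Lep (log2 fold change 2.14, against the median) and Cfd (−0.61) had the smallest p (limma adjusted p = 0.184 and 0.520), both with overlapping groups.

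Of the thymus and T cell list all 11 genes tested, of 12 listed, lay on the higher side, against 47.8% of all genes. Cd28 and Dntt had the smallest p (limma adjusted p = 0.182 and 0.248). All 6 airway and epithelial markers tested, of 10 listed, lay on the higher side too. Limma called 2 of them higher, Scgb1a1 and Bpifa1 (adjusted p = 0.0317 each), against 0.021% of all genes.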
